A study of Mus musculus with 9 samples.

Results

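Mitochondrial ribosomal protein genes are the nuclear genes whose products, made in the cytosol and imported, build the ribosome inside mitochondria. They were chosen here by symbol, as all genes whose names begin with Mrpl (large subunit) or Mrps (small subunit) followed by a number, and 72 of the 18188 listed genes met that rule, 45 Mrpl and 27 Mrps. Their mRNA was read from poly(A)-selected RNA of CD8+ T cells, the cytotoxic lymphocytes, taken from the spleens of mice. There were 5 libraries of wild-type cells (WT) and 4 of cells labelled Rig1 KO, a label that names a knockout of RIG-I. RIG-I senses viral RNA in the cytosol, and the title of the series calls it a checkpoint on the antitumour immunity of these cells. No treatment or time point is labelled in either group. The sources used here do not give the knockout allele, the strain, age and number of mice, or the way the cells were purified. As the samples are numbered without being tied to animals, the p-values reflect the spread among these samples alone, and that spread may be technical.

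The mitochondrial ribosome translates the few mRNAs encoded by mitochondrial DNA, which code for core subunits of the respiratory chain and of ATP synthase. Its RNAs are transcribed in the mitochondrion, whereas all of its proteins are encoded in the nucleus, some descended from bacterial ribosomal proteins and others found only in mitochondria. T cells expand their mitochondria when they are activated, and mitochondrial translation is known to be needed for the effector functions of cytotoxic T cells. Symbols and subunits do not match in every case. Mrps30 and Mrps18a, for example, are named as small subunit genes although their proteins sit in the large subunit, and Mrps36 was later assigned to the 2-oxoglutarate dehydrogenase complex.

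The libraries held 15496262 to 17893558 reads, recovered from the deposited TPM values (reads divided by gene length and scaled to a fixed total per library). A member had between 20 and 3811 reads in a library, and the median over members of the mean count was 315 reads, where counting error alone is 5.64%. Ddx58, the older symbol of the RIG-I gene, had 65.1 ± 2.0 TPM in WT and 33.3 ± 2.04 in Rig1 KO (SD, n = 5 and 4), with no overlap between the groups. It thus fell by 48.9% and not to 0, and with the allele unknown this level alone does not show loss of the gene. The markers of CD8+ T cells (5 genes, Cd3d, Cd3e, Cd3g, Cd8a and Cd8b1) summed to 2857 to 3374 TPM in WT and 4149 to 4618 in Rig1 KO. Markers of other cells moved with genotype too. The 11 B cell markers found summed to 169 to 1189 TPM in WT, with the highest sums in WT 4 and WT 5, and to 95 to 203 in Rig1 KO, and 8 of the 9 tested were lower. NK cell markers (6 genes, 5 of 6 higher) ran from 172 to 239 TPM in WT and 407 to 452 in Rig1 KO, basophil and mast cell markers (6 of 6 higher) from 15 to 58.4 and 221 to 422, erythroid markers (3 of 4 tested higher) from 74.0 to 197 and 176 to 319, and platelet markers (4 of 4 lower) from 180 to 242 and 31.2 to 39.3. Stromal markers (3 of 3 tested lower) ran from 28.6 to 32.5 TPM in WT and 23.9 to 25.3 in Rig1 KO. CD4 T cell markers (1 of 3 lower) ran from 19.5 to 66.0 and 20.3 to 23.4, and myeloid markers (1 of 12 higher, 2 lower) from 483 to 1117 and 709 to 852, with groups that overlap. No marker was at 0 in all libraries. The part of these other cells in the results below was looked at only through the B cell values given beside them. In such bulk samples, fewer cells of a type and less RNA per cell cannot be told apart.

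Promoters are shown first, so that letters shared between members can be set beside how each member changed. RefSeq windows on GRCm38.p6, reaching from 250 bases before to 50 after the start site, were found for 64 of the 72 members. The stretches below leave out annotated exons, run 5′ to 3′ on the gene's own strand and carry each motif match in capitals. Mrpl22 (chr11:58171414-58171660, plus strand), Mrpl10 (chr11:97041408-97041559, plus strand) and Mrps2 (chr2:28467816-28468065, plus strand) belong to genes that were higher in Rig1 KO. Mrpl1 (chr5:96209865-96210080, plus strand) and Mrps24 (chr11:5707702-5707951, minus strand) belong to genes that were lower.
Mrpl22: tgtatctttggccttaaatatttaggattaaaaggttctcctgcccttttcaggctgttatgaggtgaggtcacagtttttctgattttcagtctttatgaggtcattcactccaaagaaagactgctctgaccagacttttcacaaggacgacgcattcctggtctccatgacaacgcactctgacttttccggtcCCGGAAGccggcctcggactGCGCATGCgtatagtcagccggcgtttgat
Mrpl10: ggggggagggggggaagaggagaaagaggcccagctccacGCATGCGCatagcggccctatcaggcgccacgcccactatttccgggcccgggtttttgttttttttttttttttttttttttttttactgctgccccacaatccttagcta
Mrps2: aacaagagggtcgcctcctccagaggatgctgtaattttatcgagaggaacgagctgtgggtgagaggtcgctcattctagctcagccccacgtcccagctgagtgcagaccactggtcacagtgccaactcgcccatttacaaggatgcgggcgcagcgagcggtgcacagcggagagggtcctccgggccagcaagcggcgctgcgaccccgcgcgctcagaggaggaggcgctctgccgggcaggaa
Mrpl1: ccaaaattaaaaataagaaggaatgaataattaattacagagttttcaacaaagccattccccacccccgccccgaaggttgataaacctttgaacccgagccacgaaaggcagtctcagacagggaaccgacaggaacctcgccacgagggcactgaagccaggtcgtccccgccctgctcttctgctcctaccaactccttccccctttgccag
Mrps24: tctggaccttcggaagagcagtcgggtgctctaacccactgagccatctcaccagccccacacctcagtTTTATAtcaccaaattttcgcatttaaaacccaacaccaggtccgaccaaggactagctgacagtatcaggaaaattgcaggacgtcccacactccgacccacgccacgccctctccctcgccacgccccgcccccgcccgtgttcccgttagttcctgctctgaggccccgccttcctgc

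The capitals in the Mrpl22 promoter are the ETS core CCGGAAG, 53 bases before the start site, and the reverse complement of the NRF1 core GCATGCGC, 33 bases before it. ETS factors such as GABP and the factor NRF1 are known regulators of nuclear genes for mitochondrial proteins. Mrpl10 holds the NRF1 core 134 bases before its start, and Mrps24 holds the reverse complement of TATAAA 181 bases before its start. The stretches of Mrps2 and Mrpl1 hold none of the 5 motifs searched, which says only that these letters are not in this window. Stretches were picked by smallest p in each subunit and direction, where at least 100 bases lay outside annotated exons. A further stretch picked this way, of Mrps15, which was higher in Rig1 KO, is not printed and also holds none. Both strands were searched, in all 14095 listed genes with a window of the same length. These include genes too low to pass the filter used below, which 71 of the 72 members passed. Shares over tested genes alone were not taken. Among the 64 member windows the ETS core was found in 22 (34.4%, beside 13.8% of all windows), the NRF1 core in 6 (9.38%, beside 4.22%) and the YY1 core ATGGCGGC in 11 (17.2%, beside 3.71%). CCAAT was found in 25 (39.1%, beside 38.3%) and TATAAA in 4 (6.25%, beside 10.3%). Of the 13 member windows whose genes were higher under all 3 scalings described below, 3 held the ETS core, 3 the NRF1 core and 2 the YY1 core. Of the 5 windows of members lower under all 3, these counts were 2, 0 and 1, and of the other 46 windows they were 17, 3 and 8. A match of letters is a description and not evidence of binding.

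Of the 72 members, 71 reached a TPM of 1 in 4 or more libraries. They were tested with limma on log2(TPM + 1), and p-values were adjusted by Benjamini-Hochberg over the 10540 genes tested, with a threshold of 0.05. The exception was Mrps28, a small subunit protein, at 0.782 ± 0.114 TPM in WT and 0.713 ± 0.0938 in Rig1 KO. In all, 27 of the 71 (38.0%) passed, 21 higher and 6 lower in Rig1 KO, beside 45.7% of all tested genes (33.5% higher and 12.2% lower). Of the 45 large subunit symbols 13 were higher and 3 lower, and of the 26 tested small subunit symbols 8 were higher and 3 lower. The median log2 fold change was 0.12 for the large subunit and 0.079 for the small subunit, beside 0.13 for all tested genes. These shares and medians lie near those of all genes and are no result about the ribosome as a whole.

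The changes were small. Log2 fold changes of members ran from −0.44 to 0.73, and none of the 71 reached 1 in either direction, which 5.26% of all tested genes did. With TPM as deposited only 5 members (7.04%) reached 0.5 in size, beside 20.5% of all tested genes. All 5 (Mrpl22, Mrpl44, Mrpl10, Mrpl51 and Mrpl47) were large subunit genes that rose, which changed under the other scalings described below. The 2 groups of libraries did not overlap for 25 members (35.2%, 19 higher and 6 lower), beside 38.1% of all tested genes (28% higher and 10.1% lower). A positive log2 fold change was found for 50 members, and 31 of the 71 lay above the median of all tested genes.

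**Figure D1:**
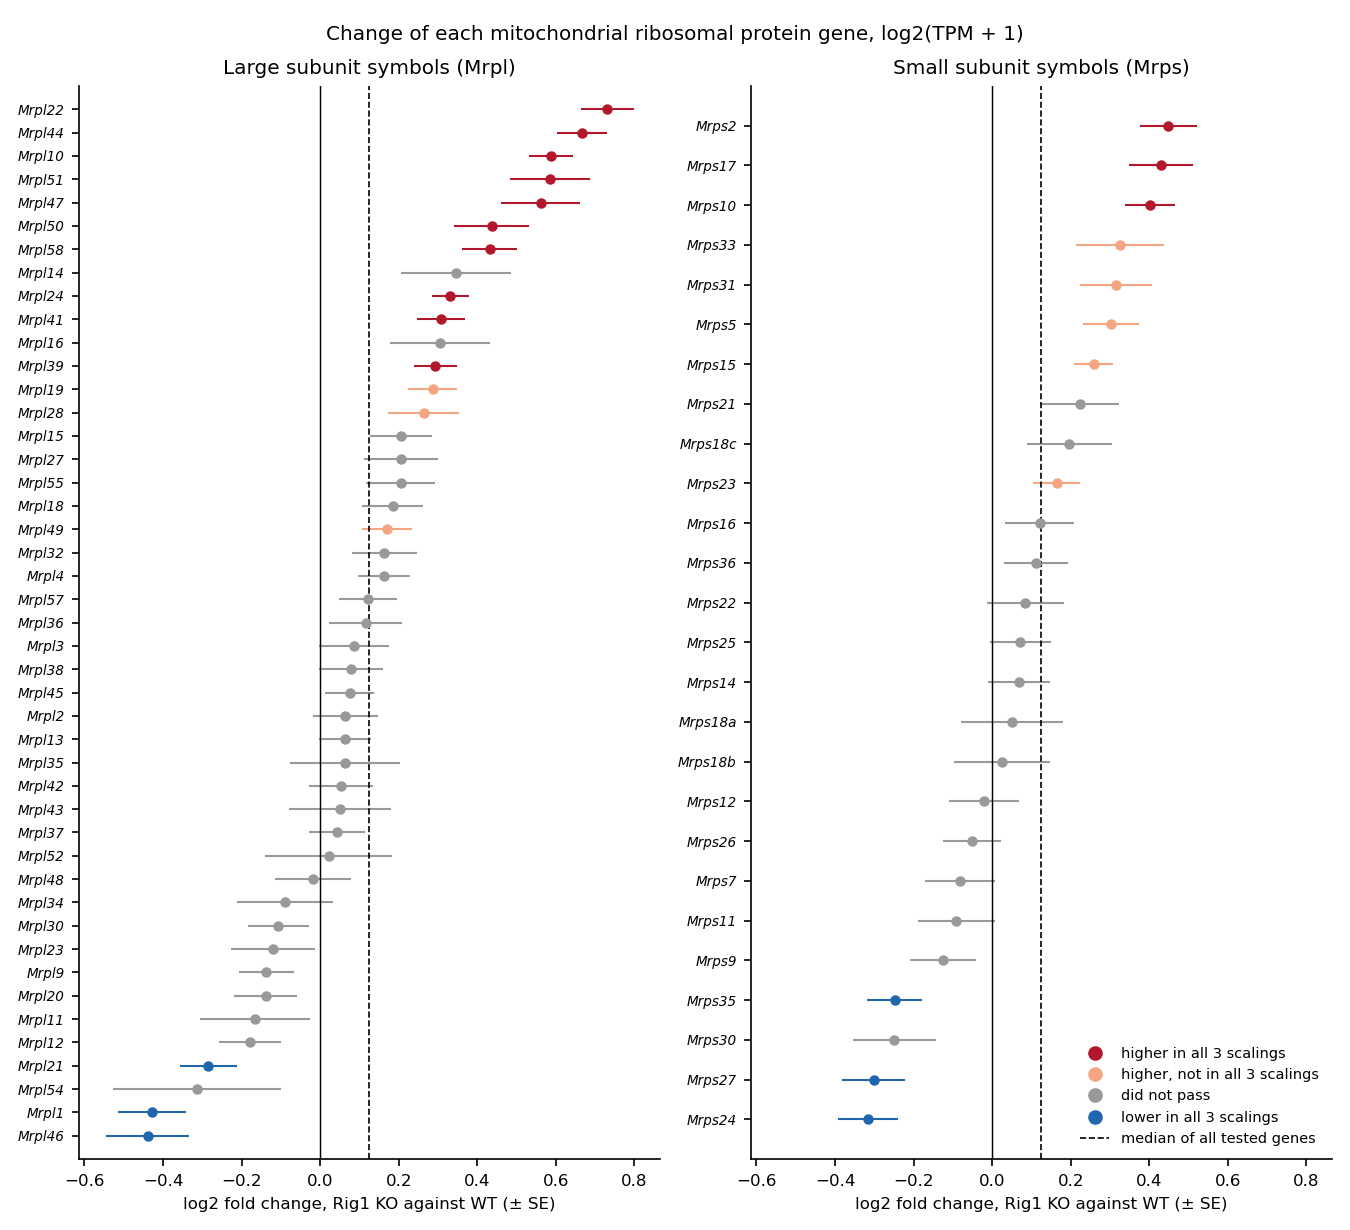
Log2 fold change of each of the 71 tested members on the log2(TPM + 1) scale (x axis, Rig1 KO against WT, bars ± SE), ordered by size within the large subunit (left) and the small subunit (right). Dark red and blue mark the 13 higher and 6 lower under all 3 scalings, pale red the 8 higher only under some, and the dashed line is the median of all tested genes at 0.13, near which many members lie.

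Because the median of all tested genes sat above 0, the calls were read under 2 further scalings. Median ratio scaling, which divides each library by the typical ratio of its genes to their mean over libraries, brings the median of all tested genes from 0.13 to 0.00, and quantile scaling, which gives every library the same distribution, brings it to 0.02. With median ratio scaling 13 members were higher and 12 lower (background 22.6% higher and 22.6% lower), and the medians of the large and small subunit became −0.019 and −0.031. With quantile scaling 15 were higher and 11 lower (background 24.2% and 20.8%). The sign of both medians therefore turns with the scaling. Under either of these scalings 4 members (5.63%) reached 0.5 in size, beside 17.5% of all tested genes with median ratio and 17.6% with quantile scaling. Mrpl22 (0.60 with median ratio scaling) and Mrpl44 (0.53) were higher, and Mrpl1 (−0.55) and Mrpl46 (−0.57) were lower. Called the same way in all 3 were 19 members (26.8%), 13 higher and 6 lower, beside 33.8% of all tested genes (21.9% higher and 11.9% lower). These 19 also kept their calls whichever of the 9 libraries was left out. The large subunit supplied 10 of the 13 higher (Mrpl10, Mrpl22, Mrpl24, Mrpl39, Mrpl41, Mrpl44, Mrpl47, Mrpl50, Mrpl51 and Mrpl58) and 3 of the 6 lower (Mrpl1, Mrpl21 and Mrpl46). The small subunit supplied Mrps2, Mrps10 and Mrps17, which were higher, and Mrps24, Mrps27 and Mrps35, which were lower.

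Mrpl22, whose bacterial relative lines the tunnel through which the new protein leaves the ribosome, showed the largest rise of any member. Its TPM was 18.7, 15.4, 15.8, 16.8 and 18.2 in WT 1 to 5 and 28.4, 28.1, 29.4 and 29.1 in Rig1 KO 1 to 4. Every Rig1 KO library thus lay far above the highest WT library. The means were 17.0 ± 1.43 and 28.8 ± 0.614 (SD, n = 5 and 4), 1.69-fold higher in Rig1 KO, with a log2 fold change of 0.73 ± 0.067 (SE) and a limma adjusted p of 1.47e-05. After median ratio scaling the log2 fold change was 0.60. Its promoter, printed above, carries both an ETS and an NRF1 core, and its whole window also a YY1 core. The window of Mrps18b carries ETS and NRF1 cores but no YY1 core, and Mrps18b did not pass (log2 fold change 0.026, limma adjusted p 0.878). Whether motifs and changes go together was not tested.

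Mrpl10 forms the base of the stalk that recruits translation factors to the large subunit. It was at 52.4, 52.9, 52.8, 53.5 and 58.8 TPM in WT and at 82.7, 75.8, 83.7 and 85.0 in Rig1 KO. The groups lie well apart, and WT 5 stands above the other WT libraries. The rise was 1.51-fold (log2 fold change 0.59 ± 0.056, adjusted p 1.76e-05). Its partner in the stalk, Mrpl12, did not pass, at 62.8 ± 7.23 and 55.1 ± 1.84 TPM (log2 fold change −0.18, adjusted p 0.0890), and was lower after median ratio scaling (−0.31, adjusted p 0.0248). The rise of Mrpl10 was thus not shared by Mrpl12.

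Mrpl44, a mitochondria-specific protein with a fold related to RNase III, was at 24.2, 23.5, 24.7, 21.3 and 22.5 TPM in WT and 37.6, 40.3, 37.3 and 34.9 in Rig1 KO. It rose 1.61-fold (0.67 ± 0.063, adjusted p 1.81e-05), and again no library of either group reached into the other. Mrpl24, whose bacterial relative is among the earliest proteins to bind during large subunit assembly, was at 411, 429, 429, 444 and 422 TPM in WT and 571, 542, 517 and 524 in Rig1 KO. Its rise was 1.26-fold (0.33 ± 0.048, adjusted p 0.000286). After median ratio scaling its log2 fold change was 0.19 (adjusted p 0.0308).

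Mrpl58, a peptidyl-tRNA hydrolase built into the large subunit that frees stalled ribosomes, was at 36.4, 34.8, 32.4, 33.4 and 34.9 TPM in WT and 50.4, 50.2, 40.7 and 46.2 in Rig1 KO. Rig1 KO 3 lies closest to WT, and the groups do not overlap. The rise was 1.36-fold (0.43 ± 0.071, adjusted p 0.000675). Mrpl51, a mitochondria-specific protein, was at 31.7, 32.4, 42.4, 32.7 and 38.7 TPM in WT and 56.6, 60.4, 47.0 and 51.1 in Rig1 KO, a rise of 1.51-fold (0.59 ± 0.10, adjusted p 0.00102). The gap between its groups is smaller than the SD within either of them. Mrpl47 (6.16 ± 0.674 to 9.58 ± 1.28 TPM), Mrpl50 (24.7 ± 1.84 to 33.9 ± 4.70), Mrpl39 (30.3 ± 1.74 to 37.4 ± 0.414) and Mrpl41 (183 ± 13.4 to 226 ± 8.12) completed the large subunit genes that were higher under all 3 scalings.

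Of the large subunit genes that fell, Mrpl1 belongs to the stalk next to which spent tRNA leaves the ribosome. It was at 7.94, 7.36, 7.10, 8.32 and 6.85 TPM in WT and 5.07, 4.74, 6.09 and 5.42 in Rig1 KO, 1.41-fold higher in WT (−0.43 ± 0.087, adjusted p 0.00241). The groups do not overlap, though Rig1 KO 3 and WT 5 lie close. Mrpl46, a mitochondria-specific protein, was nearly constant in WT, at 36.7, 35.9, 36.9, 36.2 and 36.8 TPM, and spread from 34, 27.8 and 24.9 to 21.4 in Rig1 KO 1 to 4. Its fall (−0.44 ± 0.11, adjusted p 0.00663) rests on groups of very unequal spread, with SDs of 0.455 and 5.33 TPM. Mrpl21, a protein conserved from bacteria, was at 30.7, 26.4, 32.0, 31.5 and 30.5 TPM in WT and 25.7, 22.1, 25 and 25.8 in Rig1 KO (−0.28 ± 0.072, adjusted p 0.00857). WT 2 lies below the other WT libraries and just above the highest Rig1 KO library.

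In the small subunit, Mrps10, conserved from bacteria, was at 14.3, 16.1, 14.3, 16.9 and 15.5 TPM in WT and at 20.7, 20.4, 20.6 and 20.9 in Rig1 KO, a rise of 1.34-fold (0.40 ± 0.065, adjusted p 0.000598). The Rig1 KO libraries agree to within an SD of 0.189 TPM and all lie above WT. Mrps2 was at 48.9, 63.7, 56.2, 59.5 and 52.8 TPM in WT and 76.8, 74.4, 79.8 and 76.3 in Rig1 KO, a rise of 1.37-fold (0.45 ± 0.074, adjusted p 0.000663). Mrps17 was at 35.6, 37.0, 35.9, 39.3 and 43.4 TPM in WT and 49.4, 51.1, 59.8 and 47.2 in Rig1 KO, a rise of 1.36-fold (0.43 ± 0.082, adjusted p 0.00170). For both genes the groups stay apart. The wider spread was in WT for Mrps2 (SD 5.71 against 2.23 TPM) and in Rig1 KO for Mrps17 (SD 5.49 against 3.22 TPM in WT).

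Mrps15, whose bacterial relative binds the small subunit RNA early in assembly, was at 45.2, 45.3, 46.3, 41.9 and 46.6 TPM in WT and 54.7, 52.6, 54.4 and 54.6 in Rig1 KO (0.26 ± 0.049, adjusted p 0.00166). Mrps5, the relative of a bacterial protein that affects decoding accuracy, was at 30.5, 33.0, 36.4, 36.2 and 37.6 TPM in WT and 43.9, 42.0, 45.7 and 40.4 in Rig1 KO (0.30 ± 0.071, adjusted p 0.00554). The groups of both genes do not overlap, but the calls end with median ratio scaling, at adjusted p 0.0817 for Mrps15 and 0.0531 for Mrps5. Mrps31, a mitochondria-specific protein, was at 7.20, 7.19, 6.14, 8.35 and 6.10 TPM in WT and 9.24, 8.68, 9.06 and 8.63 in Rig1 KO (0.32 ± 0.091, adjusted p 0.0159), and its adjusted p was 0.112 with median ratio and 0.204 with quantile scaling.

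The 3 small subunit genes that fell lost 17.1% to 24.9% of their mean TPM. Mrps24, the mitochondrial form of a protein at the mRNA entry of bacterial ribosomes, was at 16.6, 17.4, 18.4, 17.3 and 19.1 TPM in WT and 13.6, 15.7, 14.8 and 12.3 in Rig1 KO, a mean 20.6% lower (−0.32 ± 0.077, adjusted p 0.00691). Mrps27, a pentatricopeptide repeat protein that binds RNA, was at 2.91, 3.22, 3.02, 3.19 and 3.03 TPM in WT and 2.16, 2.13, 2.43 and 2.51 in Rig1 KO (−0.30 ± 0.080, adjusted p 0.0105). All 4 Rig1 KO libraries lie below the lowest WT library. Mrps35, a mitochondria-specific protein, was at 11.7, 11.4, 12.4, 10.6 and 11.8 TPM in WT and 8.81, 9.48, 10.4 and 9.72 in Rig1 KO (−0.25 ± 0.070, adjusted p 0.0149). Its highest Rig1 KO library lies just under its lowest WT library.

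**Figure D2:**
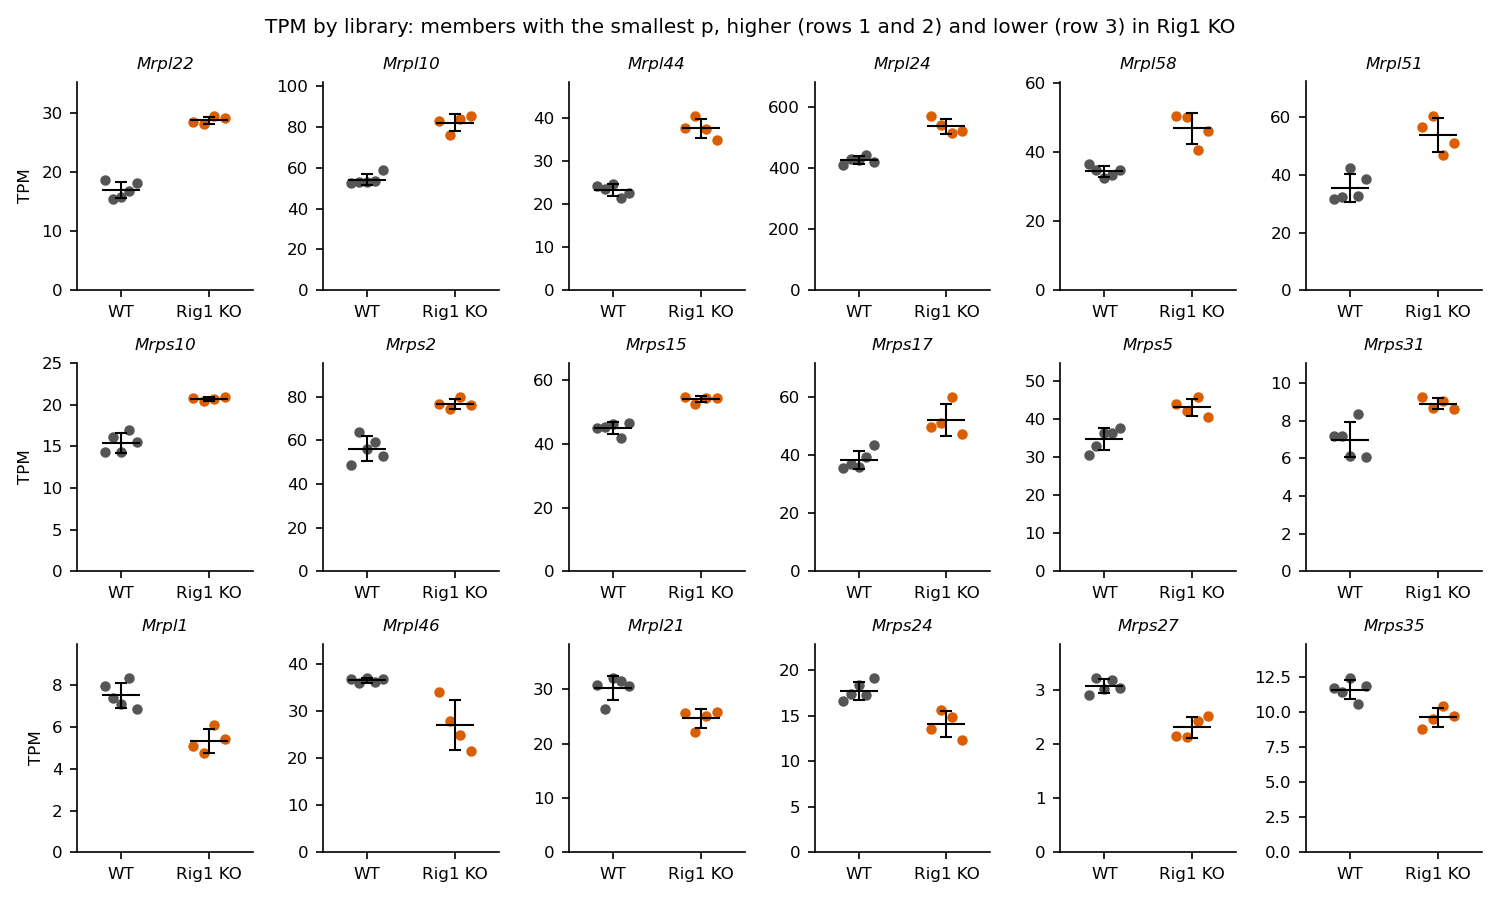
TPM (y axis, from 0) of 18 members in each WT (grey) and Rig1 KO (orange) library, 1 panel a gene, with mean ± SD in black. Rows 1 and 2 hold the large and small subunit genes with the smallest p among those higher in Rig1 KO, row 3 those lower, and in no panel do the 2 groups overlap.

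Some calls ended under another scaling. Of the 21 higher members, 8 did not pass after median ratio scaling: Mrps15, Mrps5, Mrps31, Mrpl19, Mrps33, Mrpl28, Mrps23 and Mrpl49. Conversely Mrps30, Mrpl12, Mrpl9, Mrpl20, Mrps9 and Mrpl30 did not pass with TPM as deposited and were lower with median ratio scaling (log2 fold changes from −0.24 to −0.38). All but Mrpl30 (adjusted p 0.0598) were lower with quantile scaling too. Mrps33, Mrpl28, Mrps23 and Mrpl49, whose adjusted p-values ran from 0.0353 to 0.0497, each also lost the call in several of the 9 fits that leave out 1 library. For Mrpl49 these were all but the fits without WT 3 and without WT 5, and its adjusted p reached 0.120 without Rig1 KO 2. For Mrpl28 the libraries were Rig1 KO 1, 2 and 4 and WT 1, 2 and 3, and its adjusted p reached 0.110 without Rig1 KO 4. For Mrps33 they were Rig1 KO 1, 2 and 3 and WT 1, 4 and 5 (up to 0.102, without Rig1 KO 1). For Mrps23 they were Rig1 KO 1, 3 and 4 and WT 1, 2 and 3 (up to 0.0999, without Rig1 KO 4).

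Values with the B cell signal taken into account were as follows. Without WT 4 and WT 5, 20 members were higher and 7 lower of 70 tested (background 35.3% and 9.83%), and all 19 members called in every scaling kept their calls. With the mean log2 level of the B cell markers as a covariate, 12 members were higher and 0 lower by limma (background 21.5% and 5.78%), and 23 and 4 at an unadjusted p under 0.05. Of the 19, 9 kept their calls in that fit (Mrpl10, Mrpl22, Mrpl24, Mrpl44, Mrpl47, Mrpl58, Mrps2, Mrps10 and Mrps17). The 6 that fell kept negative log2 fold changes, from −0.23 for Mrps24 to −0.50 for Mrpl46, with adjusted p-values from 0.0699 to 0.208. As 8 of the 9 tested B cell markers were themselves lower in Rig1 KO, this fit cannot fully separate B cell signal from genotype. Over all tested genes, the median absolute log2 difference was 0.089 between Rig1 KO 1 and 2 and 0.11 between Rig1 KO 3 and 4, against 0.15 to 0.20 across these pairs. Without Rig1 KO 1 and 2, Mrps27 and Mrps35 no longer passed (adjusted p 0.0667 and 0.0847), and without Rig1 KO 3 and 4 all 19 still did.

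By origin of the protein, the members also fell on either side of 0. Of 28 large subunit proteins conserved from bacteria 6 were higher and 2 lower, and of 19 specific to mitochondria (Mrps30 and Mrps18a included) 7 were higher and 1 lower. Of 15 tested small subunit proteins conserved from bacteria 5 were higher and 1 lower, and of 8 specific to mitochondria 3 were higher and 2 lower. The shares ran from 21.4% to 37.5% higher and from 5.26% to 25% lower, around the 33.5% and 12.2% of all tested genes. After median ratio scaling the counts became 4 and 6, 6 and 2, 3 and 2, and 0 and 2, where all tested genes had 22.6% in each direction. None of these differences between classes was tested. None of the 3 Mrps18 paralogs, which descend from a common bacterial protein, passed with limma (0 at an unadjusted p under 0.05). Of these, Mrps18a was counted above as specific to mitochondria, and Mrps18b and Mrps18c as conserved from bacteria. For Mrps18a the class thus does not follow its origin. Mrps18a was at 0.998, 0.995, 0.742, 1.11 and 1.36 TPM in WT and 0.696, 1.31, 1.30 and 1.15 in Rig1 KO, Mrps18b at 29.5 to 42.2 and 31.6 to 44.3, and Mrps18c at 18.8 to 26.4 and 23.2 to 28.8. Their groups overlap throughout, and Mrps18a rested on 20 to 35 reads a library. Mrps36 did not pass either (adjusted p 0.289).

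Levels were compared between members per exon length, because the deposited TPM divide by the whole genomic span of a gene, introns included (72 of 72 members within 1% of that span). Whether reads within introns were counted was not tested, and such reads would raise the exon-length values of genes with long introns. Mrps28, with 783 exon bases in a span of 121773, went from 0.782 to 44.4 as the WT mean. On TPM recomputed per exon length, Mrpl24 was the most abundant member, at 288 ± 8.56 in WT and 354 ± 22.6 in Rig1 KO, followed by Mrps23 at 157 ± 9.44 and 171 ± 3.48. Mrpl9 (98.6 ± 6.54 in WT), Mrps21 (91.0 ± 8.99), Mrpl10 (88.4 ± 3.66), Mrpl18 (86.0 ± 7.88) and Mrps15 (83.6 ± 3.65) came next in WT and do not differ from their neighbours in that order beyond their spread. In Rig1 KO, Mrpl10 was at rank 3 with 130.2 ± 4.39, Mrps21 at rank 4 with 105 ± 16.6 and Mrpl9 at rank 9 with 87.2 ± 5.66. At the low end stood Mrps18a at 1.84 ± 0.379, Mrpl47 at 6.21 ± 0.683, Mrps25 at 7.29 ± 0.636, Mrps10 at 8.73 ± 0.667 and Mrpl35 at 9.70 ± 2.42 in WT. The other 65 members lay between 10 and 100 in WT. Over all members the median was 48.1 for the large and 36.7 for the small subunit. The rank correlation of WT and Rig1 KO levels over the 72 members was 0.96, given as a description of members measured in the same libraries.

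**Figure D3:**
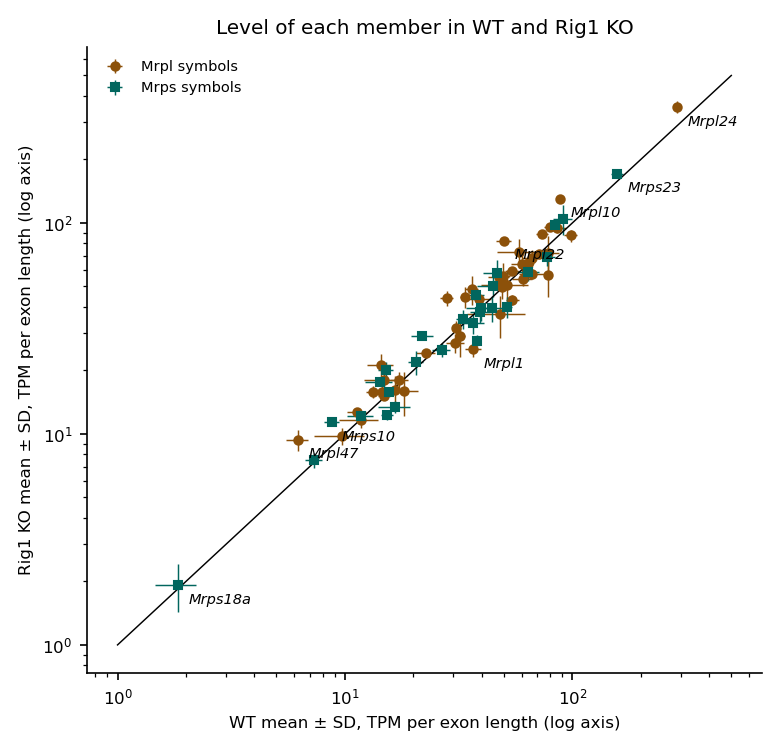
Mean level of each of the 72 members in WT (x axis) and Rig1 KO (y axis), in TPM per exon length on log axes, with bars ± SD (n = 5 and 4) and the line of equal levels. Most members lie near the line from Mrps18a at 1.84 to Mrpl24 at 288 in WT, and Mrpl22 and Mrpl10 lie above it.

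Of the most abundant members on that scale, Mrpl9 was at 94.6, 98.1, 87.0, 99.4 and 88.1 TPM as deposited in WT and 78.8, 78.4, 92.2 and 90.7 in Rig1 KO, with groups that overlap (adjusted p 0.132). Mrps23 was at 98.0, 88.1, 86.3, 99.8 and 98.4 in WT and 106, 99.6, 109 and 108 in Rig1 KO. Mrps21 was at 20.2, 21.6, 20.4, 18 and 23.6 in WT and 28.7, 25.8, 22.3 and 21.1 in Rig1 KO (adjusted p 0.0936). Mrps23 passed narrowly (0.16 ± 0.060, adjusted p 0.0434) with 1 Rig1 KO library inside the WT range, and the other 2 did not pass.

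Summed over all 72 members, the deposited TPM ran from 3075 to 3224 in WT and from 3392 to 3586 in Rig1 KO, without overlap. On that scale all tested genes had a median log2 fold change of 0.13. As a share of recovered reads the 72 members took 0.193 ± 0.00371% in WT and 0.199 ± 0.0116% in Rig1 KO, where Rig1 KO 3 at 0.186% lay under every WT library. The groups are thus apart on the TPM scale and overlap as a share of reads. The small subunit genes took 0.0673% of reads in both groups (SD 0.00141 and 0.00243).

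Neighbouring genes bear on single members, because 20 of the 71 tested members overlap another listed gene, and the sources used here do not say whether counting used strand. Reads of such pairs cannot be told apart with certainty, so these members are uncertain. Of the 20, 8 changed, and of the other 51, 19 did. In 9 overlapping pairs the member changed, and the neighbour moved the same way in 3: Wdfy1 beside Mrpl44 (0.52 beside 0.67), Ndufb5, a subunit of respiratory complex I, beside Mrpl47 (0.49 beside 0.56), and Rrnad1 beside Mrpl24 (0.48 beside 0.33). Syvn1 beside Mrpl49 moved the opposite way (−0.47 beside 0.17), and in 5 pairs the neighbour did not pass. Among those 5 is a pair of members. Mrpl46 and Mrps11 start 42 bases apart on opposite strands in RefSeq, and their promoter windows share 141 bases. Mrpl46 fell, whereas Mrps11 was at 22.1 ± 2.64 TPM in WT and 20.7 ± 2.18 in Rig1 KO (−0.09 ± 0.098, adjusted p 0.472). The difference between the 2 was not tested.

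Of 5 genes for mitochondrial ribosomal proteins with other names, 0 passed with limma, also at an unadjusted p under 0.05. They are Dap3, a GTP-binding protein of the small subunit, Ptcd3, Chchd1, Aurkaip1 and Gadd45gip1, with log2 fold changes from −0.19 (Chchd1, 93.5 ± 5.79 to 82.7 ± 14.9 TPM) to 0.10 (Gadd45gip1, 43.3 ± 1.54 to 47.2 ± 9.65 TPM). Dap3 was lower after median ratio scaling (−0.16, adjusted p 0.0326).

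The factors that build and run the ribosome are given beside its proteins. The counts of these and the later lists are to be read against all tested genes, of which 33.5% were higher and 12.2% lower as deposited (median 0.13) and 22.6% each after median ratio scaling (median 0.00). Of 24 tested assembly factors 13 (54.2%) were higher and 2 (8.33%) lower, with a median log2 fold change of 0.26. The GTPase Mtg2 rose from 18.3 ± 0.951 to 27.4 ± 1.14 TPM (0.56 ± 0.059, adjusted p 3.89e-05) and Ngrn, needed for the large subunit RNA, from 31.4 ± 3.79 to 53.8 ± 2.72. Malsu1, a late factor of large subunit assembly, fell from 20.8 ± 1.41 to 13.1 ± 1.10 TPM (−0.63 ± 0.074, adjusted p 7.23e-05). Of 17 tested translation factors 10 (58.8%) were higher and 0 lower by limma (11 and 1 at an unadjusted p under 0.05), with a median of 0.30. They include both initiation factors, Mtif2 (34.4 ± 1.92 to 46.3 ± 3.34 TPM) and Mtif3 (10.3 ± 1.64 to 16.6 ± 1.81), and Taco1, an activator of cytochrome oxidase subunit translation (15.4 ± 1.83 to 24.2 ± 3.01). With median ratio scaling the assembly factors counted 10 higher and 3 lower and the translation factors 9 and 2. With the B cell covariate the assembly factors counted 9 and 1, beside 21.5% and 5.78% of all tested genes in that fit. The translation factors there counted 8 and 0 by limma (9 and 0 at an unadjusted p under 0.05). Whether these lists differ from the ribosomal proteins was not tested.

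Of 18 tested genes that charge mitochondrial tRNAs, 8 were higher and 1 lower (median 0.15), and after median ratio scaling 8 and 3. The methionyl-tRNA synthetase Mars2 rose from 26.0 ± 2.15 to 41.3 ± 2.93 TPM, the prolyl-tRNA synthetase Pars2 from 11.2 ± 1.35 to 18.8 ± 2.31, and the amidotransferase subunit Gatc from 29.8 ± 1.32 to 40.7 ± 2.46. Among 24 genes for upkeep and transcription of mitochondrial DNA, 14 were higher and 2 lower (median 0.25), which became 8 and 5 after median ratio scaling. Polg2, the accessory subunit of the mitochondrial DNA polymerase, fell from 62.3 ± 3.22 to 25 ± 1.67 TPM (−1.28 ± 0.062, adjusted p 1.30e-07). The paralogs Mterf1a (11.9 ± 2.81 to 33.2 ± 4.96 TPM) and Mterf1b (5.76 ± 0.651 to 17.9 ± 2.81), which bind mitochondrial DNA at a transcription terminator, rose, but reads may be split between them. Changes of this size, past 1 on the log2 scale, occurred in this list and in no ribosomal protein gene. With the B cell covariate the genes for charging tRNAs counted 5 higher and 0 lower by limma (10 and 0 at an unadjusted p under 0.05). Those for mitochondrial DNA counted 10 and 1, beside 21.5% higher and 5.78% lower of all tested genes in that fit.

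The mRNAs that the mitochondrial ribosome translates and the regulators of mitochondrial biogenesis were measured in the same libraries. Of 13 mRNAs encoded by mitochondrial DNA 1 passed, mt-Atp6 (580 ± 138 to 1092 ± 475 TPM, groups overlapping, adjusted p 0.0186). With quantile scaling 3 were higher. The call of mt-Atp6 ended without WT 4 and WT 5 (0.0552) and without Rig1 KO 3 and 4 (0.137). Of 10 tested regulators of mitochondrial biogenesis 2 were higher and 4 lower, 1 and 7 after median ratio scaling and 2 and 2 without WT 4 and WT 5. Gabpa, the ETS subunit of GABP, rose from 38.4 ± 1.91 to 50.4 ± 5.75 TPM and its partner Gabpb1 fell from 19.4 ± 0.790 to 16.6 ± 1.83. Atf4, a transcription factor of the integrated stress response, fell from 1134 ± 43.3 to 524 ± 10.2 TPM (−1.11 ± 0.047, adjusted p 4.60e-08). Esrra, a nuclear receptor that drives genes of oxidative metabolism, was higher (51.9 ± 5.25 to 63.4 ± 2.20 TPM), but not after median ratio scaling (adjusted p 0.0791). Nrf1 was at 12.3 ± 0.693 and 11.4 ± 1.14 TPM and passed only after median ratio (−0.23) and quantile scaling (−0.26).

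Other sets of nuclear genes for ribosomes and mitochondria were read for comparison. Of 76 tested genes with symbols of cytosolic ribosomal proteins 1 was higher and 13 lower with TPM as deposited (median −0.22). After median ratio scaling the counts were 1 and 26, but after quantile scaling 7 and 2. The median stayed negative, at −0.36 with median ratio and −0.060 with quantile scaling, whereas the balance of higher and lower calls turned with quantile scaling. The count of lower genes also moved with 2 libraries: without Rig1 KO 3 and 4 the counts were 1 and 0 by limma (2 and 3 at an unadjusted p under 0.05), and without Rig1 KO 1 and 2 they were 1 and 52. Rps9 (4346 ± 204 to 3552 ± 402 TPM) and Rps13 (1626 ± 113 to 1264 ± 186) were lower. The 1 higher gene with TPM as deposited was Rpl7l1 (80.4 ± 7.57 to 109 ± 8.81). It is a relative of a cytosolic ribosomal protein that its symbol brought into the list. Rps13 did not pass with quantile scaling (adjusted p 0.0971). Of 77 nuclear genes for respiratory chain and ATP synthase subunits 11 were higher and 14 lower (median 0.00), with Ndufb5 and Ndufv2 higher and Ndufs4 lower. After median ratio scaling the counts were 6 and 22, and after quantile scaling 8 and 19. Without Rig1 KO 1 and 2 they were 11 and 29, and without Rig1 KO 3 and 4 they were 17 and 10.

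**Figure D4:**
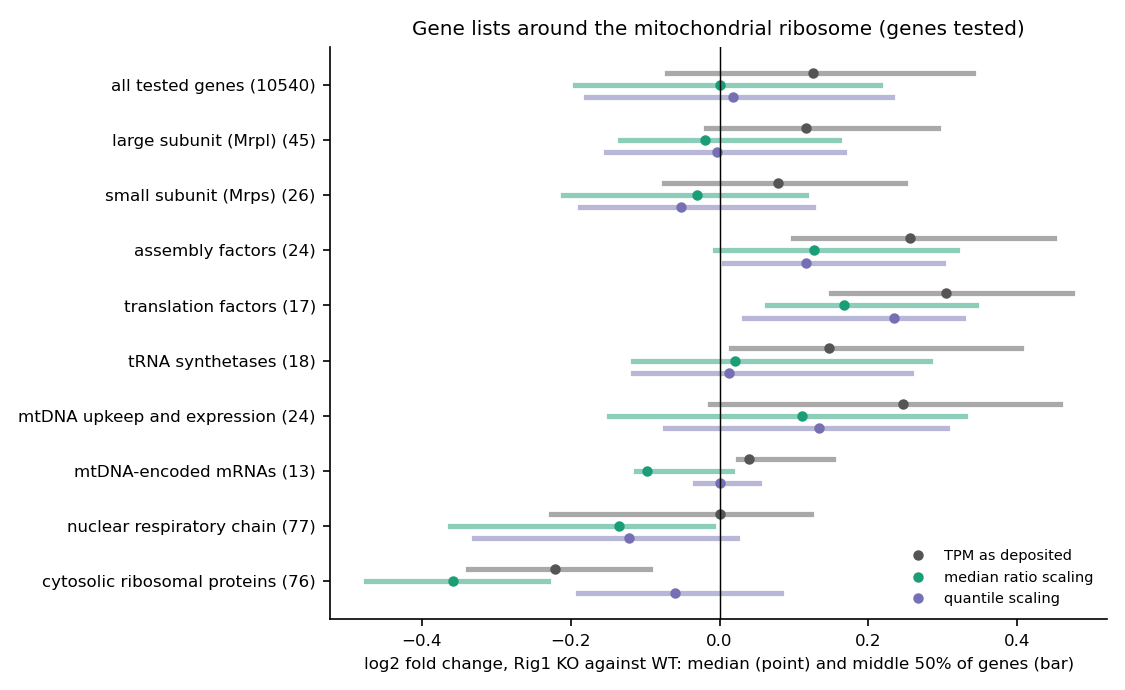
Median (point) and middle 50% (bar) of log2 fold changes, Rig1 KO against WT (x axis), for each gene list with its number of tested genes (y axis), under TPM as deposited (grey), median ratio (green) and quantile scaling (purple). Both ribosomal subunits lie near the median of all tested genes under each scaling, and assembly and translation factors lie to its right. Cytosolic ribosomal proteins lie to its left, but with quantile scaling their median (−0.060) is close to that of the small subunit (−0.052).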

How the data were processed

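The authors deposited TPM per gene for 9 libraries of mouse splenic CD8+ T cells (5 WT and 4 Rig1 KO, grouped by the sample titles). Per the submitters' processing notes, the authors used fastp and featureCounts on the mouse build mm39 (GRCm39), with no versions given. The sources used here name no aligner or annotation. The TPM of each library sum to 1000000. Whole reads were recovered from ratios of the deposited TPM for 100% of 18188 genes (relative tolerance 2e-12), which gave the depth. Gene lengths behind the TPM equal the genomic span, so levels between genes were read on TPM recomputed with exon lengths of GENCODE M21 on GRCm38 (18038 genes matched by symbol).

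The filter kept genes that reached a TPM of 1 in 4 or more libraries. Values were taken as log2(TPM + 1) and fitted by limma (version 3.58.1, R 4.3.3) with its mean-variance trend. Tests were two-sided, with Benjamini-Hochberg adjustment over the tested genes and a threshold of 0.05, and the procedure was tested on simulated data. Log2 fold changes are Rig1 KO minus WT and understate the change of low genes. Adjusted p-values come from this fit, except where another scaling is named.

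The members and lists were chosen with earlier results of these data known. Given by library are, in each subunit, up to 6 members with the smallest p in each direction, the 3 highest by exon-length TPM and the Mrps18 paralogs; 3 genes of every other list have the smallest p, and any further gene was named after its values were seen. Kinases and other non-ribosomal genes sharing the Rps symbols, and the pseudogene Cox5b-ps, were left out of the comparison lists. Rpl7l1 stayed in the cytosolic list by its symbol. Of the listed ribosomal symbols, Mrpl17, Mrpl33, Mrpl40, Mrpl53, Mrps6 and Mrps34 were not analysed here. Alternatives were pseudocounts, filters, scalings, exon lengths, recovered reads scaled to library totals, a replicate block, a B cell covariate and left-out libraries. Leaving out pairs of Rig1 KO libraries was chosen after seeing the data.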

Additional observations from a re-analysis of the deposited data

Results flagged for a closer look

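In 3 of 48 sets of libraries (24 members given by library, in WT and in Rig1 KO) 1 library stood far from the others, where chance gives about 1 in 20. Mrpl10 was at 58.8 TPM in WT 5, and the nearest WT library was at 53.5. Mrpl21 was at 26.4 TPM in WT 2, and the nearest WT library was at 30.5. Mrps15 was at 52.6 TPM in Rig1 KO 2, and the nearest Rig1 KO library was at 54.4. The calls of all 3 genes held in each fit without 1 library. WT 5 also had the highest B cell marker sum, at 1189 TPM, and its part in the Mrpl10 value was not tested.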

How the results depend on the processing

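Counts of members and genes moved mainly with the scaling and with the B cell covariate. With exon lengths all 72 members were tested, and 17 were higher and 7 lower (background 29.4% and 15.2%). With the covariate 2267 genes were higher and 609 lower, 8 large and 4 small subunit members were higher and 0 of either were lower. With median ratio scaling 2384 genes were lower, with 7 large subunit members lower, and 3 small subunit members higher and 5 lower. With quantile scaling 2195 genes were lower, with 6 large subunit members lower, and 5 small subunit members higher and 5 lower. With recovered reads scaled to library totals 2128 genes were lower, and 5 small subunit members were higher and 5 lower. Without Rig1 KO 1 and 2, 5 large subunit members were lower, and 5 small subunit members were higher and 1 lower. Without Rig1 KO 3 and 4, 2120 genes were higher. The median of the large subunit, 0.12 in the report, was 0.19 with the covariate, 0.078 with exon lengths, −0.019 with median ratio, −0.0039 with quantile scaling, 0.044 with scaled reads, 0.13 with totals without immunoglobulin, haemoglobin and mitochondrial genes, and 0.14 without WT 4 and 5. Leaving out 1 library gave 0.081 to 0.14. The median of the small subunit, 0.079 in the report, was 0.037 with exon lengths, −0.031 with median ratio, −0.052 with quantile scaling, 0.014 with scaled reads, and 0.13 without Rig1 KO 3 and 4 and also without WT 4 and 5. The cause of these shifts was not tested.

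Of 1188 values of 52 named genes under these settings, 1107 kept direction and side of the threshold, 43 no longer passed, 15 newly passed and 23 changed sign, all of the latter in genes that did not pass in either fit. Mrps18a went to −0.021 with median ratio scaling, and from −0.0053 to 0.15 when 1 library was left out. Mrps18b went to −0.17 with the covariate, −0.012 with exon lengths, −0.11 with median ratio, −0.090 with quantile scaling, −0.043 with scaled reads, −0.058 with the replicate block, −0.14 without Rig1 KO 3 and 4, −0.10 without WT 4 and 5, and from −0.058 to 0.11 when 1 library was left out. Chchd1 was at 0.016 without Rig1 KO 3 and 4. Gadd45gip1 was at −0.035 with median ratio, −0.017 with quantile scaling, −0.14 without Rig1 KO 3 and 4 and from −0.0076 to 0.19 when 1 library was left out. Aurkaip1 was at 0.095 with the covariate, 0.0059 with the replicate block, 0.024 without Rig1 KO 3 and 4, 0.020 without WT 4 and 5, and from −0.11 to 0.0059 when 1 library was left out.

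The labels number replicates in both groups. Same-numbered libraries did not deviate together (correlations 0.10, −0.06, −0.10 and −0.07), and pairs with different numbers ran from −0.162 to 0.152. These values do not settle whether same-numbered libraries share more than a number. With the replicate block 3595 genes were higher and 1182 lower, with 14 and 4 large and 7 and 3 small subunit members. Depth limits Mrps18a most, with 20 to 35 reads a library.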
